A study of Homo sapiens with 30 samples.

Results

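The genes described here are the type 2 cytokines IL4, IL5, IL9 and IL13 and the cytokine IL10, followed by transcript level in activated Jurkat cells. They were taken from the count table by symbol, 5 genes of 54300, and all 5 had a row. Type 2 cytokines are made by T helper 2 cells, mast cells, basophils and innate lymphoid cells. IL4 and IL13 act on B cells, macrophages and epithelium through receptors that share the IL4 receptor alpha chain, IL5 matures eosinophils, and IL9 acts on mast cells and T cells. IL10 dampens inflammation through its own receptor and can come from many T cell types. In T cells the transcription factor GATA3 opens the IL4, IL5 and IL13 locus, and calcium-driven NFAT together with AP-1 switches the genes on after stimulation.

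Jurkat E6-1 is a human CD4+ T cell leukaemia line. The libraries are of WT Jurkat cells and of cells labelled KO SLAMF6 ISO1, which the protocol calls SLAMF6∆17-65. SLAMF6 is a SLAM family receptor of lymphocytes. Both genotypes were sequenced unstimulated (0 h) and after 6, 12, 24 and 36 h of activation, with 3 libraries in each of the 10 groups, 30 in all. The labels give these times without a unit, and hours were assumed because the protocol gives its assay in hours. The protocol names PMA at 200 ng/ml and ionomycin at 300 ng/ml, in a text written for a 48 h secretion assay. PMA activates protein kinase C and ionomycin raises calcium, so both bypass the T cell receptor. The series title speaks of isoform 3 being over-expressed and the design of a knockout of isoform 1, and the labels of the samples follow the design. How many edited clones the KO cells come from, and whether the libraries of a group are separate cultures, is not given in the sources used here, so each p-value covers the spread between libraries, which may be technical. WT libraries of 0 to 24 h carry the letter A in their titles, KO libraries of those times B, and all libraries of 36 h C. What the letters stand for is not given in the sources used here. The letter therefore cannot be told apart from the genotype at 0 to 24 h, nor from time in any comparison of 36 h with an earlier time, while at 36 h both genotypes share it.

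Libraries held 5.64 to 28.2 M counts, with a median of 20.5 M, and 3 held under 10 M, which were replicate 2 of WT at 0 h, of KO at 0 h and of WT at 36 h. All 12 T cell markers had counts, with sums of 3988 to 6554 CPM (counts per M, scaled by TMM). SLAMF6 itself was called lower in KO at none of the times. By edgeR its log2 difference from WT was -0.13 at 0 h (adjusted p = 0.682). It was called higher in KO at 24 h, by 0.64 (adjusted p = 0.000607), and at 36 h, by 0.40 (adjusted p = 0.0269). Counts per gene sum over isoforms, so this checks nothing about isoform 1.

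IL13, IL4 and IL5 lie together on chromosome 5 and IL9 farther along the same arm. By GENCODE 29 on GRCh38, IL5 is at chr5:132541444-132556838 on the minus strand, followed by RAD50, IL13 at chr5:132656263-132661110 and IL4 at chr5:132673986-132682676, the last 2 on the plus strand. The end of IL13 and the start of IL4 are 12875 bases apart. IL9 is at chr5:135892246-135895827 and IL10 on chromosome 1 at chr1:206767602-206772494, both on the minus strand. The whole span of IL13 overlaps the antisense RNA TH2LCRR, and IL5 overlaps RAD50 over 820 bases. Whether the counting used strand is not given in the sources used here, so reads of such partners may not be told apart, and no value was matched to TH2LCRR. The authors' own build was GRCh37 or hg19, per the submitters' processing notes.

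The 250 bases before the start of IL13, IL4 and IL10 are printed because the start is where NFAT is known to act in activated T cells, and because these genes went 3 ways in the counts. IL13 rose, its neighbour IL4 stayed at a few reads, and IL10 fell. Sequences are those of RefSeq on GRCh38.p14, 5′ to 3′ on the gene's own strand, and capitals mark the core letters of an NFAT site, GGAAA, or its reverse complement TTTCC. IL13 is shown at chr5:132657923-132658172, IL4 at chr5:132673739-132673988 and IL10 at chr1:206772495-206772744.
IL13: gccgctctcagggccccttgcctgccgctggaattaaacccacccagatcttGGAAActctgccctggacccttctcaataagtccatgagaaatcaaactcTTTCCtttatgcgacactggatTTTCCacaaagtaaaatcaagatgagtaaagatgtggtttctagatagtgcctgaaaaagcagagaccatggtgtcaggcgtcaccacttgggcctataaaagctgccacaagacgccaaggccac
IL4: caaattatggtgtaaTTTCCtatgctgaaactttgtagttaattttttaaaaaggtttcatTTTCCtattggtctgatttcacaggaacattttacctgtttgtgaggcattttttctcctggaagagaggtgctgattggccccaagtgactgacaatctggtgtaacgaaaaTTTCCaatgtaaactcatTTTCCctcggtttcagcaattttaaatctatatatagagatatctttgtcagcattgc
IL10: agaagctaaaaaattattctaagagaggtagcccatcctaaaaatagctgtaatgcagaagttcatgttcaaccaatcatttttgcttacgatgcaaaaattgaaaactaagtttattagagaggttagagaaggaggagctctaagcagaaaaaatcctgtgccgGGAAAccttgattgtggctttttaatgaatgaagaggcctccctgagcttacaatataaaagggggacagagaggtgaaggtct
IL13 has 3 matches, which begin at positions -198, -148 and -126, counted from the start so that -1 is the last base before it. IL4 has 4, at -235, -189, -76 and -58, and IL10 has 1, at -84. The search ran on windows of 300 bases, with 50 bases from the start on. Of 35116 such windows in the RefSeq table, 61.2% held the core on either strand and 9.94% held 3 matches or more. IL9 also had 3 matches. A second IL13 window, for a start farther upstream, had none, and 2 further IL10 windows had 2 and 1. The AP-1 letters TGANTCA were found in the IL9 window and in 1 of the further IL10 windows, and in 7.71% of all windows. The letters GATAA, read on both strands, were found in the IL4 window and the upstream IL13 window, and in 22.7% of all windows. A match is a string of letters and not a bound site.

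Counts of the 5 genes were few and uneven. Over the 30 libraries IL13 had 1751 counts, IL10 152, IL5 111, IL4 85 and IL9 3. IL13 made up 83.3% of the 2102 counts, 91.2% in WT and 58.1% in KO. Only IL13 and IL10 passed the filter on low counts (a minimum count of 10 by the filterByExpr rule), so 2 of the 5 genes were tested. Per kb of exon, IL4, IL5, IL13 and IL10 started close together in unstimulated WT cells, at 0.308, 0.230, 0.203 and 0.188 CPM per kb. After 36 h in WT, IL13 was at 6.99 CPM per kb, IL4 at 0.138, IL5 at 0.0297 and IL10 at 0.00729, and IL9 had no count. In KO at 36 h, IL13 was at 0.755 CPM per kb, IL4 at 0.239, IL5 at 0.176 and IL10 at 0.0239.

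IL13 rose late in activation, and it rose far more in WT than in KO. In unstimulated WT cells the libraries held 0.272, 1.34 and 0.147 CPM (7, 10 and 4 counts). At 6 h they held 0.920, 0.625 and 0.695 CPM, and at 12 h 0.435, 0.962 and 0.186 CPM. These values overlap those of 0 h, and the highest of them at 0 h is from the WT library with 7.59 M counts. At 24 h the WT libraries stood at 4.77, 4.60 and 7.75 CPM and at 36 h at 23.5, 17.2 and 19.9 CPM (518, 160 and 422 counts). Every WT library of 24 h lay above every one of 0 to 12 h, and every one of 36 h lay above those of 24 h.

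In KO, IL13 started at 0.553, 0.352 and 0.188 CPM (13, 2 and 5 counts). It was at 1.01, 0.349 and 0.975 CPM at 6 h and at 0.876, 0.144 and 0.647 CPM at 12 h. At 24 h the KO libraries held 0.811, 0.844 and 1.43 CPM and at 36 h 2.28, 2.67 and 1.59 CPM. Both late times lay above 0 h without overlap, and the plot of IL13 by library shows KO at 36 h still under every WT library of 24 h.

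**Figure D1:**
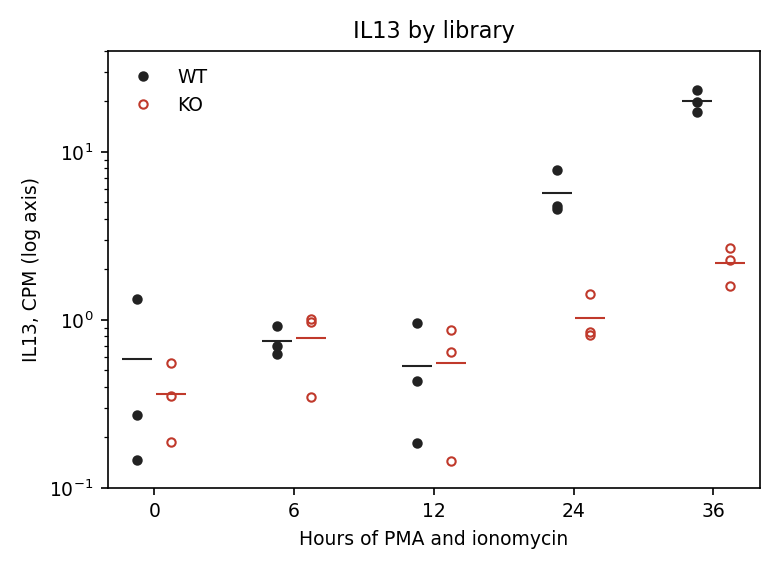
IL13 in CPM (log axis) against hours of PMA and ionomycin, with 1 point per library (filled WT, open KO) and a bar at the mean of 3 libraries. The genotypes overlap at 0, 6 and 12 h, and at 36 h the WT libraries sit at 17.2 to 23.5 CPM and the KO libraries at 1.59 to 2.67 CPM.

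Activation was tested for each genotype against its own 0 h with edgeR's quasi-likelihood test, adjusted over 21554 genes. WT IL13 rose by a log2 of 3.85 at 24 h (SE 0.538, adjusted p = 4.90e-07) and 5.67 at 36 h (SE 0.535, adjusted p = 1.11e-10). IL13 was at 0.92 after 6 h and 0.50 after 12 h, neither called (adjusted p = 0.322 and 0.605). As a background, 22.4%, 30.2%, 34.2% and 39.0% of tested genes were called in WT at 6, 12, 24 and 36 h, and at 36 h 20.1% were higher and 19.0% lower. KO IL13 rose by 2.56 at 36 h (SE 0.562, adjusted p = 0.000379). At 24 h it was at 1.51 (SE 0.601, adjusted p = 0.0527), just outside the threshold, and DESeq2 called it (adjusted p = 0.0231). At 6 and 12 h it was at 1.08 and 0.60 (adjusted p = 0.211 and 0.558). In KO 27.1%, 27.8%, 32.8% and 36.6% of genes were called at these times, and at 36 h 18.6% were higher and 18.0% lower. With WT at 0 h left without its 7.59 M library, WT IL13 at 6 h was called too, at 1.79 (adjusted p = 0.0403). All 4 later times together were called in both genotypes (adjusted p = 2.51e-13 in WT and 0.000955 in KO), as were 51.1% and 50.0% of genes.

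Between neighbouring times, WT IL13 rose from 12 to 24 h by a log2 of 3.35 (SE 0.500, adjusted p = 6.86e-06). It rose again from 24 to 36 h by 1.82 (SE 0.397, adjusted p = 0.00308). From 6 to 12 h the value was -0.43 (adjusted p = 0.705). The 3 steps were called in 9.48%, 14.8% and 7.06% of genes, in order of time. No KO step was called for IL13, at -0.48, 0.90 and 1.05 (adjusted p = 0.692, 0.326 and 0.190), where 10.9%, 14.5% and 7.34% of genes were.

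KO and WT had like IL13 levels until 12 h and parted at 24 h. Means were 0.587 ± 0.657 CPM in WT and 0.364 ± 0.183 in KO at 0 h (SD, n = 3), 0.747 ± 0.155 and 0.779 ± 0.373 at 6 h, and 0.527 ± 0.396 and 0.556 ± 0.374 at 12 h. They were 5.71 ± 1.77 and 1.03 ± 0.350 CPM at 24 h, and 20.2 ± 3.14 and 2.18 ± 0.550 CPM at 36 h. KO stood at 18.0% of WT at 24 h and 10.8% at 36 h, with no overlap of libraries at either time. The fitted log2 difference, KO against WT, was -2.45 at 24 h (SE 0.456, adjusted p = 0.000340) and -3.22 at 36 h (SE 0.426, adjusted p = 1.60e-06). At 0, 6 and 12 h it was -0.11, 0.05 and -0.01 (SE 0.717, 0.525 and 0.564, adjusted p = 0.959, 0.977 and 0.998). Genotype calls covered 6.06%, 9.93%, 11.4%, 9.55% and 13.5% of genes at 0, 6, 12, 24 and 36 h, and 6.96% were higher and 6.52% lower at 36 h. Among 21554 genes IL13 ranked 389 by p at 24 h and 150 at 36 h, where 88 called genes, IL13 among them, had a log2 as low as its own or lower. All 5 genotype differences together were called for IL13 (adjusted p = 7.64e-07), as for 30.1% of genes. In bulk RNA, fewer cells that make IL13 and less IL13 RNA per cell cannot be told apart.

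Ordered by mean level, the 10 groups ran from WT at 36 h through WT at 24 h, KO at 36 h and KO at 24 h down to the other 6 groups. The first 4 did not overlap with one another. KO at 24 h, at 0.811 to 1.43 CPM, overlapped the next groups, KO and WT at 6 h. The 6 lowest groups had means between 0.364 and 0.779 CPM, and each overlapped its neighbours in this order.

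The change of IL13 from 0 h differed between the genotypes. At 36 h the KO change was lower by a log2 of -3.11 (SE 0.836, adjusted p = 0.0149). At 24 h the difference was -2.34 (SE 0.852, adjusted p = 0.132), and at 6 and 12 h 0.16 and 0.10 (adjusted p = 0.966 and 0.984). Over the 4 later times together the adjusted p was 0.00100. Such differences were called in 3.09%, 2.04%, 3.68% and 9.33% of genes at 6, 12, 24 and 36 h, and in 9.77% jointly. The call at 36 h rests on few reads at 0 h. It was lost without WT 0 h replicate 1 (-2.81, adjusted p = 0.0591), WT 0 h replicate 3 (-2.53, adjusted p = 0.0538) or KO 0 h replicate 1 (-2.43, adjusted p = 0.197).

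Markers of other cell types known to make type 2 cytokines or IL10 were read beside these values. All 10 mast cell and basophil markers had a count somewhere, and their sum went from 7.07 to 8.21 CPM in WT at 0 h to 532 to 612 CPM at 36 h, and in KO from 2.34 to 3.53 CPM to 378 to 421 CPM. At 36 h nearly all of this was HDC, the enzyme that makes histamine, at 572 ± 41.2 CPM in WT and 400 ± 21.5 CPM in KO at 36 h. FCER1A and MS4A2, chains of the IgE receptor that defines those cells, had 7 and 17 counts over all 30 libraries. HDC was lower in KO at 36 h by a log2 of -0.51 (SE 0.0967, adjusted p = 0.000212) and at 0 h by -2.31 (SE 0.190, adjusted p = 4.35e-11). Its change from 0 h was larger in KO, by 1.49 at 24 h and 1.79 at 36 h (adjusted p = 1.99e-05 and 4.57e-07), where that of IL13 was smaller. All 8 eosinophil markers had counts, with sums of 1.61 to 3.54 CPM in WT and 1.70 to 2.64 CPM in KO at 0 h, and 2.15 to 4.22 and 6.81 to 9.61 CPM at 36 h. The 8 monocyte and macrophage markers summed to 8.61 to 9.90 CPM in WT and 21.6 to 24.0 CPM in KO at 36 h, and the 7 B cell markers to 22.0 to 23.5 and 26.5 to 27.3 CPM. Of the eosinophil markers, CLC, PRG3, RNASE2 and RNASE3 had 39, 16, 22 and 18 counts over all 30 libraries. The eosinophil sum of KO at 36 h was mostly PRG2, which averaged 7.16 CPM there against 1.35 CPM for the WT libraries. PRG2, the highest of the eosinophil markers, was higher in KO at 36 h by a log2 of 2.39 (SE 0.450, adjusted p = 0.000495). The macrophage marker CD68 was higher too, by 1.53 (SE 0.250, adjusted p = 4.07e-05). CD79A, a B cell marker, was not called (0.21, adjusted p = 0.476). The eosinophil sums at 12 h were 5.65 to 7.87 CPM in WT and 13.1 to 40.9 CPM in KO. The part of these marker genes in the IL13 difference was not tested.

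**Figure D2:**
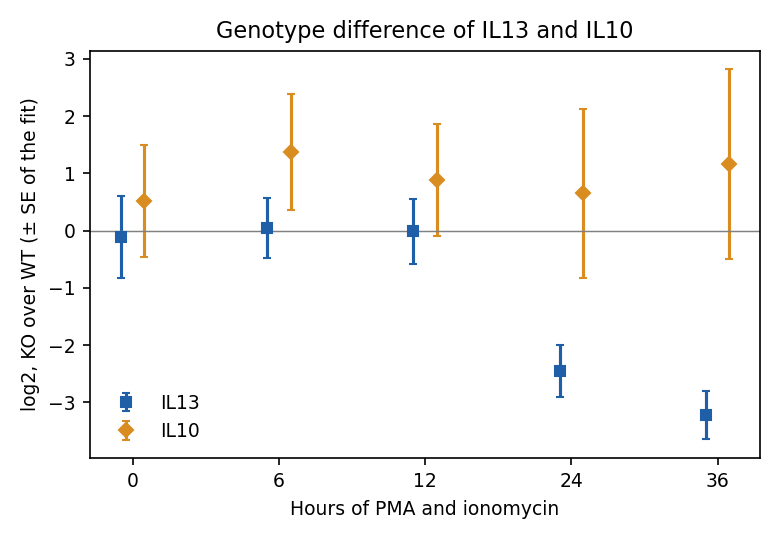
Fitted log2 difference, KO over WT, of IL13 (squares) and IL10 (diamonds) at each time, with bars for the SE of the fit over 30 libraries. IL13 lies near 0 until 12 h and at -2.45 and -3.22 at 24 and 36 h, while no IL10 difference was called.

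IL10 went the other way from IL13, from low to nearly nothing, in both genotypes. The WT libraries held 0.311, 0.537 and 0.367 CPM at 0 h (8, 4 and 10 counts). WT counts were 4, 1 and 6 at 6 h, 2, 14 and 0 at 12 h, 2, 0 and 0 at 24 h, and 0, 0 and 1 at 36 h. KO started at 0.765, 0.528 and 0.376 CPM (18, 3 and 10 counts). KO counts were 3, 20 and 7 at 6 h, 6, 15 and 11 at 12 h, 0, 1 and 3 at 24 h, and 0, 3 and 0 at 36 h. In each genotype every library of 24 and 36 h lay below every one of 0 h, while the libraries of 12 h overlapped 0 h. Those of 6 h lay below 0 h in WT, at most 0.278 CPM against at least 0.311 CPM, and overlapped it in KO.

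The fall of IL10 at 36 h was called in WT, at a log2 of -3.96 (SE 1.41, adjusted p = 0.0227), and in KO, at -3.32 (SE 1.19, adjusted p = 0.0248). IL10 passed the filter only through libraries of 0 to 12 h, where it was higher. Those of 24 and 36 h held at most 0.154 CPM. The test of the fall is therefore not independent of the filter. By 24 h IL10 stood at -3.00 in WT and -2.86 in KO (adjusted p = 0.0696 and 0.0517), and at 6 and 12 h -1.16 and -0.43 in WT and -0.30 and -0.06 in KO (adjusted p from 0.495 to 0.979). With so few reads the pooled counts are the plainer statement. WT had 1 count at 36 h against 22 at 0 h, a depth-corrected ratio of 0.0523 with a 95% exact interval of 0.00127 to 0.323, for counting error only. KO had 3 against 31, a ratio of 0.0878 (0.0172 to 0.281). At 24 h the ratios were 0.121 (0.0138 to 0.491) in WT and 0.130 (0.0334 to 0.368) in KO. The WT call was lost without WT 36 h replicate 1 or 2 (adjusted p = 0.0989 and 0.0589). The KO call was lost without KO 0 h replicate 1 (adjusted p = 0.0974) or KO 36 h replicate 1 or 3 (adjusted p = 0.0902 and 0.116). Over the 4 later times together IL10 was called in KO (adjusted p = 0.0285) and not in WT (adjusted p = 0.0589). The joint KO call was lost without KO 0 h replicate 1 (0.0576), KO 24 h replicate 1 or 2 (0.0594 and 0.0520) or KO 36 h replicate 1 or 3 (0.0693 and 0.0811).

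Group means of IL10 were highest in KO at 0 h, at 0.556 ± 0.196 CPM, then in KO at 12 h, at 0.536 ± 0.221, KO at 6 h, at 0.451 ± 0.380, and WT at 0 h, at 0.405 ± 0.118 CPM. WT followed with 0.273 ± 0.354 CPM at 12 h and 0.170 ± 0.116 CPM at 6 h. The 4 groups of 24 and 36 h had means of 0.0157 to 0.0695 CPM, and neighbours in this order overlapped. Over all times KO held 100 counts and WT 52, from different depths. KO against WT, IL10 was at log2 0.52, 1.37, 0.89, 0.65 and 1.16 at 0, 6, 12, 24 and 36 h, with SE of 0.976 to 1.66 and adjusted p of 0.479 to 0.865. At this depth no genotype difference in IL10 was detectable.

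IL4, IL5 and IL9 stayed at a few reads per library throughout. IL4 is the signature cytokine of T helper 2 cells. It had 47 counts in WT and 38 in KO, at most 9 in a library, and group means of 0.0154 to 0.305 CPM. WT at 0 h held 0.252 ± 0.0515 CPM and WT at 36 h 0.113 ± 0.0213 CPM, and KO held 0.117 ± 0.203 and 0.195 ± 0.240 CPM. At 6 h the genotypes did not overlap, with 4, 2 and 1 counts in WT against 1, 0 and 0 in KO, a KO to WT ratio of 0.141 with a counting interval of 0.00312 to 1.10. That interval takes in no difference.

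IL5, the eosinophil growth factor, had 40 counts in WT and 71 in KO, at most 16 in a library. Its means at 0 h were close, at 0.365 ± 0.299 CPM in WT and 0.356 ± 0.316 CPM in KO. At 36 h WT held 0, 0 and 3 counts and KO 4, 7 and 6, or 0.0471 ± 0.0816 and 0.279 ± 0.0700 CPM. Those libraries did not overlap, and KO was above WT. Here and for IL4 and IL13, the share of all genes without overlap was not counted, so such splits are a description only. The KO to WT ratio of IL5 was 4.84 with a counting interval of 1.40 to 25.8. In a fit of all genes with any count, the log2 difference of IL5 at 36 h was 2.24 (unadjusted p = 0.0772, adjusted p = 0.465), so the difference was within the spread the fit allows.

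IL9 was read 3 times in 30 libraries, in 2 WT libraries of 12 h and in 1 KO library of 6 h. A group with no count is compatible with up to 0.0468 to 0.0659 CPM in WT and 0.0487 to 0.0542 CPM in KO (3 counts over the group). With no filter, edgeR called none of 81 tests on IL4, IL5 and IL9, and 1 had an unadjusted p under 0.05.

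**Figure D3:**
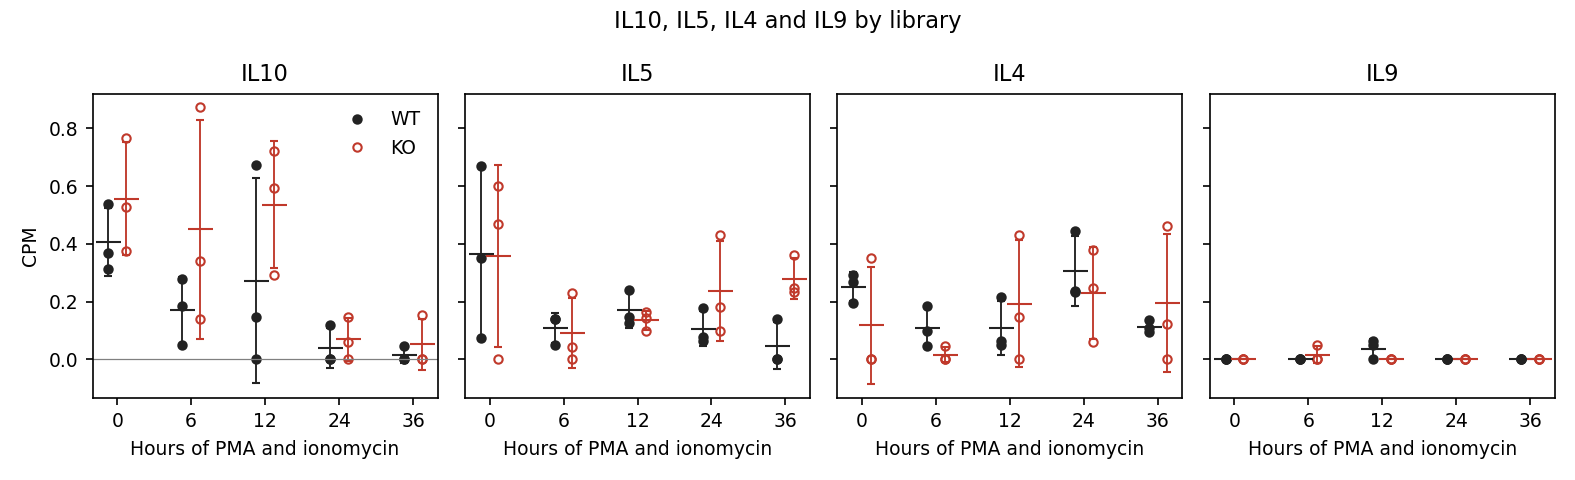
CPM of IL10, IL5, IL4 and IL9 against hours of PMA and ionomycin on 1 shared axis, with 1 point per library (filled WT, open KO) and bars for mean ± SD of 3 libraries. IL10 is near 0 in both genotypes at 24 and 36 h, the 3 KO libraries of IL5 at 36 h lie above WT, and IL9 has single reads only.

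The neighbours of IL13 on 5q31 include further cytokine genes. CSF2 encodes the growth factor GM-CSF, and IL3 a growth factor of mast cells and basophils. IL3 was named after its values were seen. CSF2 had no count in WT at 0 h and 4 in KO, and reached 26.6, 34.5 and 64.7 CPM in WT and 44.9, 50.3 and 81.5 CPM in KO at 24 h. At 36 h it was at 129, 127 and 106 CPM in WT and 252, 223 and 250 CPM in KO. KO libraries of 36 h were the higher ones, but the log2 difference of 1.01 was not called (SE 0.492, adjusted p = 0.210). At 6 h CSF2 was higher in KO by 2.85 (SE 0.645, adjusted p = 0.00679), with 21.6, 3.41 and 21.2 CPM in KO and 1.39 to 2.58 CPM in WT. KO replicate 2 thus stood apart, close to WT, and its IL3 was at 0.393 CPM against 13.6 and 11.6 CPM in the other KO libraries. IL3 at 36 h was at 32.5, 26.7 and 28.5 CPM in WT and 44.4, 40.3 and 40.8 CPM in KO (log2 0.51, SE 0.676, adjusted p = 0.712). IL13, CSF2 and IL3 were all called higher at 36 h against 0 h in WT, and IL13 was the one of the 3 called different between the genotypes at 24 and 36 h. A difference between these genes was not tested.

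**Figure D4:**
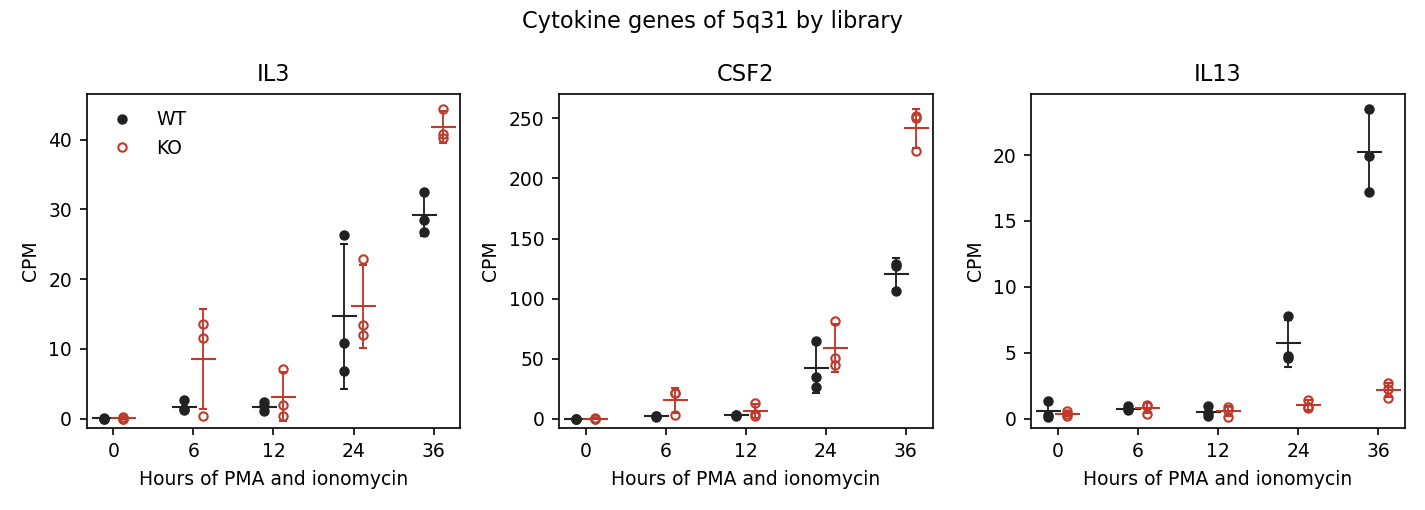
CPM of IL3, CSF2 and IL13 against hours of PMA and ionomycin, each on its own axis, with 1 point per library (filled WT, open KO) and bars for mean ± SD of 3 libraries. At 36 h the KO libraries lie above WT for IL3 and CSF2 and below WT for IL13.

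Of 17 neighbours tested on 5q31, 6 rose and 1 fell in WT at 36 h, and 8 rose and 0 fell in KO (median log2 0.39 and 0.36, against 0.01 and 0.04 over all genes). The shares over all genes were 20.1% higher and 19.0% lower in WT and 18.6% and 18.0% in KO. In KO against WT at 36 h, 4 were higher and 1 lower (median 0.28, all genes -0.00), against 6.96% and 6.52% of all genes. At 24 h 4 were higher and 0 lower, where 9.55% of all genes were called. With CSF2, which had no count in WT at 0 h, set to its lower bound, the WT median stays 0.39. Those higher at 36 h were PDLIM4, an actin-binding LIM protein, at a log2 of 2.63 (adjusted p = 0.000284), the transporter SLC22A4 at 1.43 (adjusted p = 0.000120), IRF1, an interferon response factor, at 0.75 (adjusted p = 4.07e-05), and GDF9 at 0.95 (adjusted p = 0.0172). AFF4, a subunit of the super elongation complex, was lower by -0.48 (adjusted p = 0.00273). The genes on either side of the IL13 and IL4 pair were not called at 36 h, RAD50, a DNA repair gene, at 0.27 (adjusted p = 0.0571) and KIF3A, a kinesin, at -0.25 (adjusted p = 0.111). RAD50 was at 66.7 ± 4.65 CPM in WT and 80.2 ± 5.92 CPM in KO, and at 24 h it was called higher in KO, at 0.29 (adjusted p = 0.0493). The carnitine transporter SLC22A5 was higher in KO at 6 h (0.64, adjusted p = 0.000921), and ACSL6, an acyl-CoA ligase, was not called between genotypes at any time. GDF9, AFF4, RAD50 and KIF3A were named after their values were seen.

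**Figure D5:**
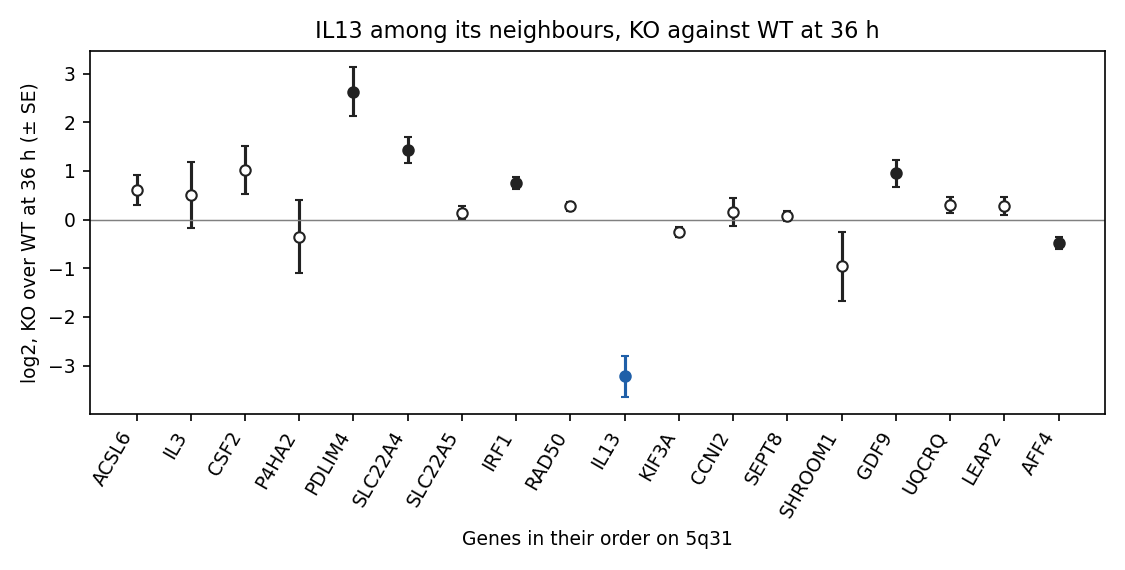
Fitted log2 difference, KO over WT at 36 h (± SE), of the 17 neighbours tested and IL13, in their order along 5q31, with filled points for genes called. IL13 stands at -3.22 between RAD50 at 0.27 and KIF3A at -0.25, and the called neighbours lie between -0.48 and 2.63.

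Around IL9, 3 of 6 neighbours were tested. SMAD5, which carries BMP signals, fell by a log2 of -0.63 in WT (adjusted p = 4.14e-06) and -0.52 in KO (adjusted p = 9.32e-05) at 36 h, and none was called between genotypes. Of 9 neighbours of IL10 tested on 1q32, 6 rose in WT at 36 h and 5 in KO, and 0 fell, where 20.1% and 18.6% of all genes were higher. The kinase IKBKE was at 0.67 and 0.95 (adjusted p = 3.62e-05 and 7.79e-08) and MAPKAPK2, a kinase of the p38 pathway, at 1.37 and 1.34 (adjusted p = 1.93e-06 and 1.66e-06), where IL10 fell. In KO against WT at 36 h, 5 were higher and 1 lower, where 6.96% and 6.52% of all genes were. The higher ones were the kinase DYRK3 at 0.67 (adjusted p = 0.00678), the initiation factor EIF2D at 0.61 (adjusted p = 0.000306), RASSF5, which regulates adhesion, at 0.68 (adjusted p = 0.0175), IKBKE at 0.43 (adjusted p = 0.0146) and SRGAP2 at 0.67 (adjusted p = 0.00479). The lower one was FAIM3, an Fc receptor for IgM, at -0.97 (adjusted p = 0.0185), named after its value was seen. SRGAP2 has near-identical copies, so its counts are uncertain.

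Among 27 tested transcription factors of type 2 cells and their counterparts, 10 rose and 5 fell in WT at 36 h, and the same numbers in KO (median log2 0.11 and 0.84). Over all genes 20.1% were higher and 19.0% lower in WT, and 18.6% and 18.0% in KO, so the falls lie near the background. STAT6, which carries the IL4 and IL13 signal, rose by a log2 of 1.83 in WT and 1.38 in KO (adjusted p = 1.53e-16 and 2.27e-13). BCL6, a repressor known from follicular helper cells, rose by 4.12 and 3.12, and was lower in KO at 36 h by -0.79 (adjusted p = 0.000322), at 60.4 ± 4.54 against 104 ± 18.2 CPM. SATB1, a chromatin organiser that folds the type 2 locus, fell by -1.11 and -1.33. GATA3, named after its values were seen, was at 73.7 ± 17.6 CPM in WT and 53.1 ± 17.4 CPM in KO at 24 h, and at 52.4 ± 4.19 and 37.7 ± 2.82 CPM at 36 h, neither called between genotypes (adjusted p = 0.277 and 0.248).

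Between genotypes 3 of these factors were higher and 4 lower in KO at 24 h, and 6 higher and 5 lower at 36 h (median 0.05 and 0.03), where 9.55% of all genes were called at 24 h and 6.96% were higher and 6.52% lower at 36 h. At 24 h the higher ones were GFI1, TBX21 and JUNB and the lower ones BCL6, RUNX1, SATB1 and IKZF1. TBX21, which encodes the T helper 1 factor T-bet, was at 21.3 ± 2.42 against 9.07 ± 3.18 CPM at 36 h (1.23, adjusted p = 0.0199), and JUNB, part of AP-1, at 155 ± 21.6 against 80.6 ± 16.9 CPM (0.95, adjusted p = 0.00285). TBX21, JUNB and IKZF1 were named after their values were seen. SATB1 was lower in KO at 6, 12, 24 and 36 h, most at 12 h, by -1.41 (adjusted p = 4.50e-11). RUNX1 was lower at 12, 24 and 36 h, by -0.87, -0.62 and -0.42 (adjusted p = 7.14e-06, 0.000976 and 0.0233). GFI1, a repressor that favours growth of type 2 cells, was higher at 6 to 36 h, at 22.8 ± 4.75 against 13.5 ± 4.21 CPM at 36 h (0.76, adjusted p = 0.0179). BHLHE40, a factor that represses IL10, was higher at 6 h, at 30.9 ± 13.8 against 8.14 ± 1.17 CPM (1.93, adjusted p = 1.39e-06), and at 12 h (1.54, adjusted p = 6.70e-05). RUNX3, which silences IL4 in T helper 1 cells, was higher at 0, 6 and 12 h, by 0.73, 0.86 and 0.91 (adjusted p = 0.0329, 0.00125 and 0.000919).

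Receptors for these cytokines were present in part. Of 9 receptor genes 6 were tested, and 3 rose and 1 fell in WT at 36 h and 4 and 1 in KO (median log2 0.62 and 0.95), where 39.0% and 36.6% of all genes were called. IL4R, shared by IL4 and IL13, was at 4.85 ± 0.450 CPM in WT at 0 h and 26.7 ± 3.55 CPM at 36 h, and at 5.41 ± 1.18 and 34.5 ± 4.33 CPM in KO. IL2RG, the common gamma chain, was at 693 ± 80.5 CPM in WT and 719 ± 34.2 CPM in KO at 36 h, and IL10RB at 91.3 ± 9.59 and 98.3 ± 6.32 CPM. IL9R fell at 36 h by a log2 of -1.22 in WT (adjusted p = 0.00641) and -2.11 in KO (adjusted p = 3.65e-05). Between genotypes IL10RA was lower in KO at 6 h (-1.26, adjusted p = 0.00518) and higher at 36 h (0.88, adjusted p = 0.0445), at 4.98 ± 1.55 against 2.68 ± 0.507 CPM. No other receptor was called between genotypes at a single time. Of all genes, 9.93% were called at 6 h and 13.5% at 36 h. Over the 5 times together IL10RA, IL10RB and IL4R were called (adjusted p = 0.00473, 0.0304 and 0.0326), as were 30.1% of all genes.

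All 15 genes of receptor signalling were tested, and 10 rose and 1 fell in WT at 36 h and 10 and 2 in KO (median log2 0.82 and 1.26). Over all genes 20.1% were higher and 19.0% lower in WT, and 18.6% and 18.0% in KO. The kinase JAK3, which pairs with the common gamma chain, rose by a log2 of 2.10 and 1.96, STAT3, which carries the IL10 signal, by 1.03 and 1.26, and the phosphatase PTPN11 by 1.84 and 1.50. In KO against WT 3 were higher and 0 lower at 24 h, and 0 were called at 36 h by edgeR's test, where 9.55% and 13.5% of all genes were called. JAK3 was higher in KO at 24 h by 0.39 (adjusted p = 0.0230), JAK2 by 1.05 (adjusted p = 0.00344), and the feedback inhibitor SOCS3 at 12 h by 1.72 (adjusted p = 0.000733) and at 24 h by 1.20 (adjusted p = 0.0358). PTPN6 was lower in KO at 0 and 6 h, by -0.65 and -0.62 (adjusted p = 0.0141 and 0.0112).

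Of 21 type 2 surface and effector genes 13 were tested, and 4 rose and 3 fell in WT at 36 h and 6 and 3 in KO (median log2 1.12 and 1.00). The WT counts lie near the shares of all genes, 20.1% higher and 19.0% lower, and in KO those shares were 18.6% and 18.0%. The chemokine CCL1 was at 19.2 ± 1.59 CPM in WT and 48.7 ± 2.40 CPM in KO at 36 h (1.35, adjusted p = 0.0293), opposite in direction to IL13. The co-stimulator ICOS reached 99.6 ± 9.99 and 129 ± 7.97 CPM (adjusted p = 0.729 between genotypes). The type 2 receptors CCR4 and PTGDR2 fell in WT at 36 h by -1.99 and -2.49 (adjusted p = 0.00140 and 0.000892) and in KO by -1.59 and -3.03 (adjusted p = 0.0285 and 6.30e-05). CCR4 had first risen, by 1.53 in WT at 6 h (adjusted p = 0.00832). In KO it rose by 2.83 at 6 h and 3.03 at 12 h (adjusted p = 5.48e-05 and 2.37e-05). At 0 h CCR4 was lower in KO than in WT, by -1.89 (adjusted p = 0.0167). TNFRSF4, the OX40 receptor, was higher in KO at 6 h by 1.81 (adjusted p = 0.000466) and at 12 h by 1.72 (adjusted p = 0.00170). At 24 h none of the 13 was called between genotypes, and at 36 h CCL1 alone was, where 9.55% and 13.5% of all genes were called.

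Of the IL10 family 3 of 8 genes were tested. IL22, which acts on epithelium, was at 0.496 ± 0.226 CPM in WT and 2.28 ± 0.723 CPM in KO at 6 h (2.18, adjusted p = 0.0681). IL26 and IL24 were higher in KO at 6 h, by 2.67 (adjusted p = 0.0185) and 1.78 (adjusted p = 0.00931), at 4.88 ± 3.49 against 0.762 ± 0.129 CPM and 6.11 ± 3.44 against 1.77 ± 0.660 CPM. IL26 was called lower at 36 h than at 0 h in both genotypes (adjusted p = 0.0498 in WT and 0.0106 in KO), as IL10 was, with 2 counts in each at 36 h against 24 and 29 at 0 h.

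Of the 14330 genes that reached 1 CPM in a group, the 3 whose log2 CPM followed IL13 most closely over the 30 libraries were SCPEP1, UGCG and CCDC81, with Pearson r of 0.875, 0.872 and 0.872. SCPEP1, a serine carboxypeptidase, was at 195 CPM in WT and 100 CPM in KO at 36 h, and UGCG, which makes glucosylceramide, at 131 and 63.1 CPM. For IL10 they were PCGF6, ACPL2 and DCAF16, with r of 0.821, 0.801 and 0.799. The libraries share time and genotype groups, and IL10 is sparse, so these r are a description only.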

How the data were processed

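The authors deposited 1 file of expected counts per library, by gene symbol, and values with a decimal part (0.177% of all) were rounded. Per the submitters' processing notes cutadapt, STAR and DESeq2 were used with GRCh37 and hg19, and no source used here gives their versions, the counting program or the annotation. A table for the series as a whole repeats these values and was left aside.

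The tests used edgeR 4.0.16 (R 4.3.3): filterByExpr at a minimum count of 10, TMM, and the quasi-likelihood F test, with all 30 libraries in 1 model of 10 group means. P-values were adjusted by Benjamini-Hochberg over 21554 genes, and a gene was called under 0.05. Levels are TMM-scaled CPM, as mean ± SD of 3 libraries. Alternatives were no filter, DESeq2 1.42.0 and its size factors, only the libraries compared, a replicate block, CPM without TMM, and leaving out each library. From each of 8 lists the text names up to 4 called genes with the smallest joint p for WT activation and up to 4 for genotype. Likeness of pattern was ranked by log2 CPM (prior count 2). The genes, lists and tests were chosen with earlier results of these data known.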

Additional observations from a re-analysis of the deposited data

Results flagged for a closer look

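The activation response of IL13 differed between the genotypes. The change from 0 h to 36 h was lower in KO by a log2 of -3.11, and the joint test over 4 later times had an adjusted p of 0.00100. All 3 WT libraries of 36 h lay above all 3 KO libraries. Without WT 0 h replicate 1, WT 0 h replicate 3 or KO 0 h replicate 1 the adjusted p at 36 h was 0.0591, 0.0538 and 0.197, and the WT and KO groups at 0 h held 21 and 20 counts of IL13.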

How the results depend on the processing

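No called value reversed under any alternative, and 45 uncalled values changed sign. IL13 in KO against WT stayed called at 24 and 36 h in every alternative that gave a value. Of the 5 genes, 2 of which were tested in the main fit, the number called in KO at 24 h against 0 h was 0. It was 1 with no filter, with DESeq2 size factors and with only the 6 libraries compared, and 2 with DESeq2. Over all genes 7063 of 21554 were called in the main fit. In the alternatives, in this order, it was 6344 of 50747, 7084 of 21554, 6632 of 16219 and 7403 of 21554. The difference in the change to 24 h went from 0 to 1 with no filter, with DESeq2 and without the 3 libraries under 10 M counts. Over all genes 794 of 21554 were called in the main fit, and 854 of 50747, 1250 of 21554 and 420 of 22939 in these alternatives. Leaving out the 3 libraries was chosen after seeing the data. It also moved WT at 6 h from 0 to 1 and WT at 36 h from 2 to 1, where 4080 and 6858 of 22939 genes were called. With only the 6 libraries compared, WT and KO at 36 h each went from 2 to 1, because IL10 no longer passed the filter. Leaving out 1 library gave 0 to 1 called in WT at 6 h, in KO at 24 h and in the difference in change at 24 h and at 36 h. It gave 1 to 2 in WT at 24 h and 36 h, in KO at 36 h and in the joint tests of activation in WT and in KO. All 50 levels moved by less than 1 SD without TMM. WT and KO share numbers in their titles at 0 to 24 h. The numbers were not taken as pairs, because 1 of 12 pairs correlated above 0.1. Yet 9 of 12 WT libraries correlated best with the KO library of their own number, out of 3 at that time. Whether the numbers mark pairs was therefore not settled. With a replicate block the IL13 difference at 24 h was -2.49 (adjusted p = 0.00284), and the number called among the 5 genes did not change. Over all genes, calls of KO against WT at 24 h went from 2059 of 21554 to 2507 of 21004. Depth limits IL4, IL5, IL9 and IL10, where 1 to 3 counts set a group's level.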
